A study of Homo sapiens with 78 samples.

Results

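The mRNA levels of 10 phosphatases of mitogen-activated protein kinases (MAPKs) were followed in A549 cells, an established human lung carcinoma line with features of type II alveolar epithelium. The genes, chosen by name, were DUSP1, DUSP2, DUSP4, DUSP5, DUSP6, DUSP7, DUSP8, DUSP10, DUSP14 and DUSP16, 10 of the 19652 genes listed. Wild-type cells, kept overnight in medium without serum, were given fresh medium of the same kind with IL-1β at 1 ng/ml plus budesonide at 300 nM (cotreatment), with IL-1β alone, with budesonide alone, or with neither (not stimulated, NS). A solvent control for budesonide is not described in the labels. IL-1β is an inflammatory cytokine that activates NF-κB and the MAPKs, and budesonide is a glucocorticoid that acts through the glucocorticoid receptor (GR). Poly(A) RNA was sequenced after 1, 2, 6, 12 and 24 h in 78 libraries, 4 per treatment and time except for the cotreatment at 12 h and NS at 6 h, with 3 each. All cells were of 1 line, so the results describe that line only.

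Dual-specificity phosphatases of this family remove phosphate from both the threonine and the tyrosine that activate a MAPK, and so end signaling by ERK, JNK or p38. Several of their genes are themselves switched on within minutes by the kinases they restrain, which makes them feedback regulators, and DUSP1 is in addition a well-known glucocorticoid-induced gene of airway epithelium. DUSP1, DUSP2, DUSP4 and DUSP5 act in the nucleus. DUSP6 and DUSP7 act on ERK in the cytoplasm. DUSP8, DUSP10 and DUSP16 act mainly on JNK and p38, and DUSP14 is a small atypical member that lacks the amino-terminal kinase-binding domain.

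The promoters of 8 of the 10 genes matched a RefSeq table on GRCh38.p14, in 9 promoters, of 35116 promoters in all. DUSP4 and DUSP5 were not matched. The 250 bases before the start of transcription are shown for DUSP1 and DUSP8, which had the highest log2 fold changes of the family 1 h after IL-1β, and for DUSP10, which had the next one. Capitals mark the cyclic AMP response element TGACGTCA, a site for CREB and ATF factors, and its half-site TGACG, on either strand.
DUSP1 (chr5:172771196-172771445, minus strand): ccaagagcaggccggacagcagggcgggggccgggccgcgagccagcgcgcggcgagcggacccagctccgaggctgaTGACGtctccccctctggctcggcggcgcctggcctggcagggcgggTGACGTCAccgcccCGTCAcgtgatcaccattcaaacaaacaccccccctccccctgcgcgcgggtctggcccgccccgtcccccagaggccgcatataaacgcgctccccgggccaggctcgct
DUSP8 (chr11:1572272-1572521, minus strand): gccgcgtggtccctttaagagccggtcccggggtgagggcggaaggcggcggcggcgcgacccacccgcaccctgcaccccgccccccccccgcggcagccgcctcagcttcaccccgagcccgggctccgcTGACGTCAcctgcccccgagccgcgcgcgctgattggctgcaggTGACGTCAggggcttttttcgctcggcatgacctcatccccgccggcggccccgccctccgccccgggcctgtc
DUSP10 (chr1:221742090-221742339, minus strand, the first of 2 listed starts): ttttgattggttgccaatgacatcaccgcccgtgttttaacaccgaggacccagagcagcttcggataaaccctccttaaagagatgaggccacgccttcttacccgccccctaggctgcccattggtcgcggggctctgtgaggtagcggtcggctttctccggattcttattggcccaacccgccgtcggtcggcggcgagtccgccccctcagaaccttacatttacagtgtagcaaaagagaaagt
Counted from the start of transcription, the first base of the whole element lay at -125 in DUSP1, with further half-sites at -172 and -111. DUSP8 held it at both -118 and -74. Each whole element contains overlapping half-sites on both strands. The whole element was found in no other promoter matched here and in 1.65% of all 35116, and the half-site in 21.2%. DUSP1 also had a TATA box (TATAAA), at -30, found in 10.7% of all promoters. A κB site, the binding sequence of NF-κB, was matched only in DUSP7, at -158, and in 9.96% of all promoters. None of the 9 promoters held the full palindromic glucocorticoid response element (0.003% of all), its half-site TGTTCT (12.4%) or the AP-1 site TGANTCA (6.57%). These letters were looked for in 250 bases only, and a match is a description of the sequence.

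Values are TPM, a measure of transcript abundance scaled for length and for the total of the library, normalized between libraries by the authors. Log2 fold changes are from limma on log2(TPM + 0.5), given with their SE, and a call, up or down, needed an adjusted p of 0.05 or less together with a change of 2-fold or more. Of the 10 phosphatases 9 passed the filter on low values (at least 1 TPM in at least 3 libraries) and DUSP2 did not. Library sums lay between 812680 and 1009499 TPM, mitochondrially encoded genes took 11.8% to 17.2% of them, and 5 libraries stood apart from the rest of their groups. These were cotreatment numbers 4 (1 h) and 2 (12 h), budesonide numbers 3 (2 h) and 2 (12 h), and IL-1β number 2 (24 h). Distance was the median absolute log2 difference over genes from the mean of the other libraries of the group. The cut was 2.1 times the median distance of all libraries (0.135). These 5 had 0.290 to 0.459, and the highest of the other 73 had 0.273, so the cut does not fall in a wide gap. All 5 epithelial markers had a median of at least 1 TPM, against 0 of 5 endothelial, 1 of 5 immune and 2 of 5 fibroblast markers. In RNA of a whole culture, fewer cells that express a gene and less of its mRNA per cell cannot be told apart.

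In NS cells the phosphatase mRNAs spanned a wide range of levels. DUSP4 was the most abundant, with a median of 38.7 TPM over 19 libraries (32.4 to 51.6), followed by DUSP1 with 31.1 TPM (25.2 to 40.7). DUSP16 had a median of 20.6 TPM (13.2 to 40.3) and DUSP14 of 20.1 TPM (16.9 to 23.1). Then came DUSP5 with 15.0 TPM (12.1 to 17.2) and DUSP6 with 8.23 TPM (6.62 to 14.4). The JNK and p38 phosphatases DUSP10 and DUSP8 had medians of 2.82 and 2.34 TPM, and DUSP7 one of 1.70 TPM. Over these 19 libraries the ranges of neighbours in this order overlapped, apart from those of DUSP6 and DUSP10. DUSP2, known mostly from leukocytes, was at 0 in 18 of the 78 libraries and nowhere above 0.394 TPM. Its group with the highest mean was IL-1β at 1 h, with 0.394, 0.285, 0.294 and 0.187 TPM. Against NS at 1 h, 0 of 36 values of the 9 tested genes in NS cells passed the limma adjusted p of 0.05 (lowest 0.0644). Of these values 8 had an unadjusted p of at most 0.05, so a change over time in NS cells is not excluded. DUSP4 had 41.6 to 51.6 TPM in NS cells at 1 h and 32.4 to 38.7 TPM at 2 h, without overlap. DUSP7 was higher in NS cells at 2 h than at 1 h, also without overlap.

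**Figure D1:**
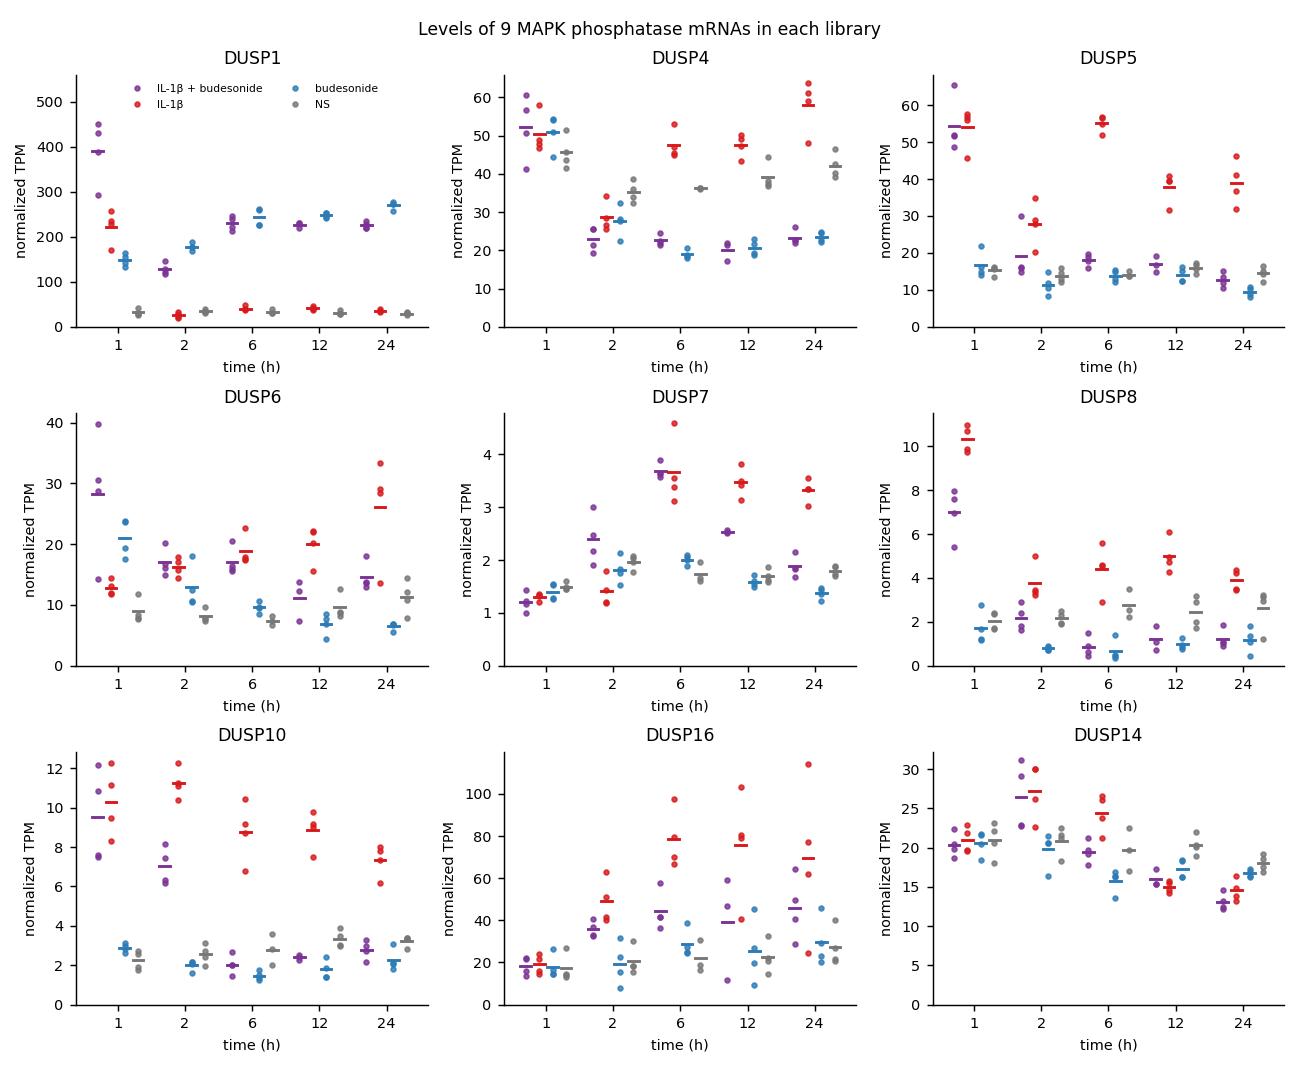
Normalized TPM (vertical axis, linear, from 0) of 9 phosphatase mRNAs at each time, each point 1 library and each bar the mean of 3 or 4 libraries. DUSP1 stands above 118 TPM in every library given budesonide, with or without IL-1β, and DUSP5, DUSP10 and DUSP8 stand high with the cotreatment at 1 h and no longer from 6 h on.

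IL-1β raised 6 of the 9 tested phosphatases at 1 or more times and lowered none past 2-fold. Over all 13327 genes tested, 7.53% were called up at 1 or more times. In gene and time pairs these were 18 of 45 up (3.29% of all pairs) and 0 down (2.54%), with 5 lower at an unadjusted limma p of at most 0.05. Budesonide raised 2 genes, DUSP1 and DUSP6 (4.87% of all genes), in 6 pairs (2.17% of all pairs), and lowered 1, DUSP8 (6.36% of all genes), in 2 pairs (1.92%). At an unadjusted limma p of at most 0.05, 17 of the 45 pairs were lower with budesonide and 8 higher. In either direction 24.6% of the pairs of all genes had such a p. The cotreatment against NS gave 12 pairs up (3.28% of all pairs) and 1 down (2.41%). Against IL-1β the cotreatment lowered 5 genes (5.6% of all genes) in 13 pairs (2.03% of all pairs), and raised DUSP1 and DUSP6 (5.15% of all genes) in 5 pairs (2.02%). Against budesonide it gave 7 pairs up (1.93% of all pairs) and 0 down (0.752%), with 4 lower at an unadjusted limma p of at most 0.05. Treatments compared with NS share the NS libraries, and all comparisons of the cotreatment share its libraries, so these counts are not independent of each other.

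**Figure D2:**
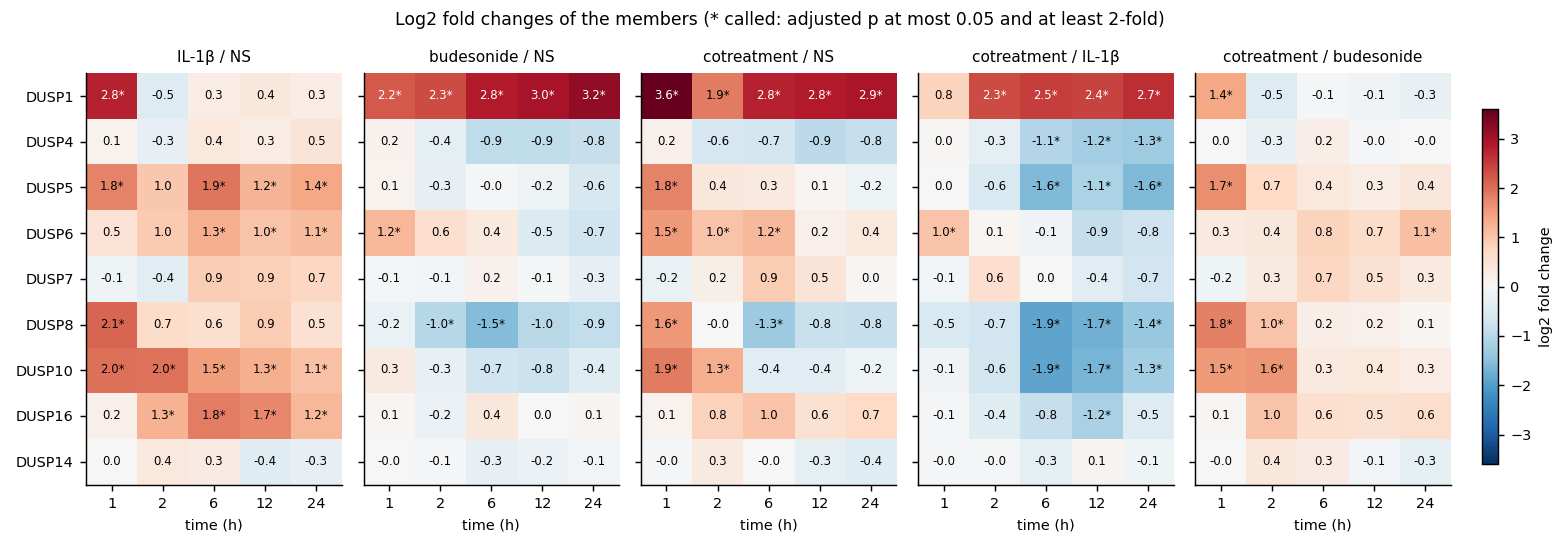
Log2 fold changes of 9 phosphatases (rows) at 1, 2, 6, 12 and 24 h (columns) in 5 comparisons, with red for higher and blue for lower in the first-named condition and an asterisk for a call. The row of DUSP1 is red at every time in budesonide against NS, at 2.21 at 1 h and 3.19 at 24 h, while the cotreatment against IL-1β is blue from 6 h on for DUSP4, DUSP5, DUSP8 and DUSP10.

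DUSP1, the nuclear phosphatase of p38, JNK and ERK, responded to both agents, with different time courses. At 1 h the cotreatment gave 292, 430, 388 and 450 TPM and IL-1β alone 171, 235, 228 and 256 TPM. Budesonide alone gave 141, 133, 154 and 164 TPM, against 27.1, 29.1, 31.1 and 40.7 TPM in NS cells. The 4 groups did not overlap, in the order cotreatment, IL-1β, budesonide, NS. Against NS the log2 fold change was 3.59 ± 0.12 with the cotreatment (adjusted p = 1.00e-34), 2.78 ± 0.12 with IL-1β (6.77e-29) and 2.21 ± 0.12 with budesonide (1.06e-22). The cotreatment stood 0.81 ± 0.12 above IL-1β, short of 2-fold (adjusted p = 5.19e-06), and 1.38 ± 0.12 above budesonide (2.57e-14).

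By 2 h DUSP1 was no longer raised by IL-1β. The 4 IL-1β libraries had 33.7, 28.5, 19.0 and 21.1 TPM, against 33.8, 35.2, 30.0 and 39.9 TPM in NS cells, with overlap and a log2 fold change of -0.46 ± 0.12 (adjusted p = 0.00381). From 6 to 24 h IL-1β group means were between 35.4 and 41.5 TPM, with log2 fold changes of 0.27 to 0.40 and no call. The difference between the IL-1β responses at 24 and 1 h was -2.51 ± 0.17 (adjusted p = 7.07e-19).

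Budesonide held DUSP1 high for the whole day. At 24 h it gave 273, 258, 272 and 278 TPM, against 25.2, 30.0, 29.5 and 32.4 TPM in NS cells (log2 fold change 3.19 ± 0.12, adjusted p = 4.38e-32). Its response was 0.98 ± 0.17 higher at 24 h than at 1 h (adjusted p = 5.26e-06). With the cotreatment the level was lowest at 2 h, at 147, 127, 118 and 121 TPM, all below the budesonide libraries at 177, 169, 178 and 188 TPM (-0.48 ± 0.12, adjusted p = 0.0036, short of 2-fold). At 24 h it was 234, 220, 228 and 220 TPM, again below every budesonide library, but the difference of -0.26 did not pass the test (95% interval -0.51 to -0.02, adjusted p = 0.186). The differences at 6 h, -0.08 (-0.32 to 0.17), and 12 h, -0.12 (-0.39 to 0.14), did not pass it either. Against IL-1β the cotreatment raised DUSP1 by 2.33 ± 0.12 at 2 h and 2.66 ± 0.12 at 24 h.

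These changes made DUSP1 the dominant mRNA of the family. With the cotreatment it made up 49.1% to 67.7% of the summed TPM of the 10 genes, by group mean. IL-1β alone gave 55.0% ± 5.1 at 1 h and 13.4% to 16.5% later (SD, n = 4). With budesonide the share was 52.6% at 1 h and 74.9% at 24 h, against 19.5% to 24.7% in NS cells over the 5 times. The summed level itself was highest with the cotreatment at 1 h, 581.6 ± 53.3 TPM, against 145.7 ± 8.0 TPM in NS cells (SD, n = 4 each).

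**Figure D3:**
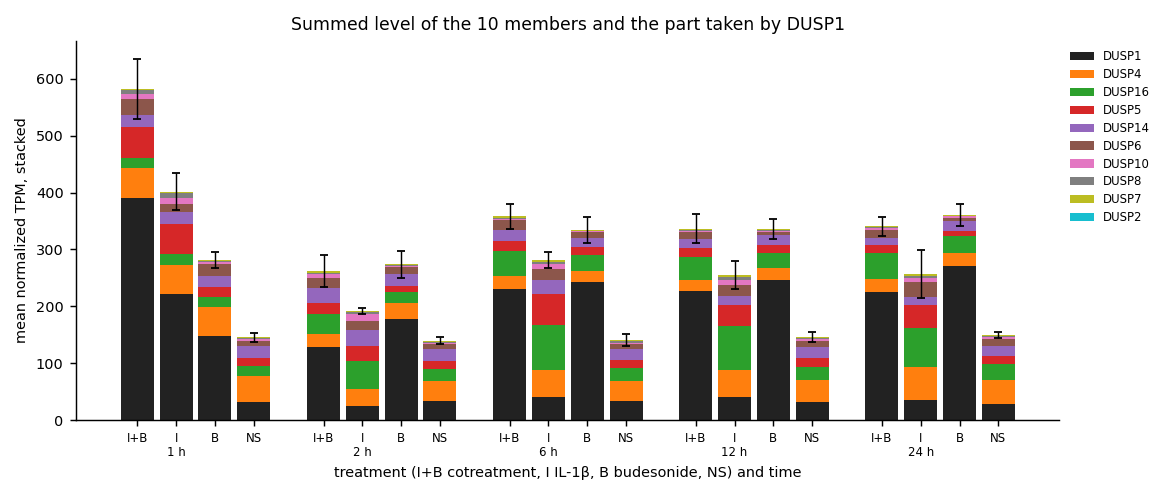
Mean TPM of the 10 phosphatases stacked in 1 bar per treatment and time (vertical axis from 0, error bars the SD of the summed level over 3 or 4 libraries), with DUSP1 in black at the foot. DUSP1 takes most of each bar with budesonide or the cotreatment, apart from 49.1% with the cotreatment at 2 h, and 24.7% or less of each NS bar.

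DUSP4 and DUSP5, the other tested nuclear members, were not called with budesonide alone at any time, and both were lowered by the cotreatment against IL-1β. DUSP5, a phosphatase specific to ERK, had 55.9, 57.7, 56.8 and 45.6 TPM after 1 h of IL-1β, against 15.6, 15.9, 16.1 and 13.5 TPM in NS cells (log2 fold change 1.79 ± 0.15, adjusted p = 3.13e-15). It was again high at 6 h, with 56.8, 56.6, 54.8 and 52.0 TPM with IL-1β, against 15.0, 13.6 and 13.7 TPM in NS cells (1.92 ± 0.16, 8.47e-16). In between, at 2 h, it had 34.9, 28.8, 27.8 and 20.3 TPM with IL-1β, against 15.9, 14.4, 12.8 and 12.1 TPM in NS cells, a change of 0.97 ± 0.15 just short of 2-fold (adjusted p = 5.28e-07). IL-1β thus gave 2 high times with a lower one between them, and no IL-1β library overlapped NS at any of these 3 times.

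What budesonide did to DUSP5 in the presence of IL-1β depended on time. At 1 h the cotreatment gave 65.4, 52.0, 51.7 and 48.7 TPM, which overlapped the IL-1β libraries (difference 0.01, 95% interval -0.29 to 0.31). At 6 h it gave 19.0, 19.7, 15.9 and 17.8 TPM, all far below the IL-1β libraries (-1.58 ± 0.15, adjusted p = 1.41e-13), and at 24 h 15.0, 13.4, 10.5 and 11.9 TPM, against 31.9, 46.2, 41.1 and 36.7 TPM with IL-1β (-1.58 ± 0.15, 1.40e-13). The difference between the effects at 24 and 1 h was -1.59 ± 0.21 (adjusted p = 2.42e-08). Budesonide alone gave 15.3, 12.9, 12.2 and 14.8 TPM at 6 h, which overlapped NS (-0.04, 95% interval -0.36 to 0.29). At 24 h budesonide alone gave 8.14 to 10.8 TPM, against 12.2 to 16.3 TPM in NS cells, without overlap. This change was -0.58 ± 0.15 (adjusted p = 0.0011), short of 2-fold. The cotreatment at 6 h was 0.34 above NS, which did not pass the test (95% interval 0.02 to 0.67, adjusted p = 0.111), though these groups did not overlap and the adjusted p was 0.0203 with the replicate number as a block.

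DUSP4, a nuclear phosphatase of ERK and JNK and the most abundant member in NS cells, was called in the cotreatment against IL-1β only. At 6 h the cotreatment gave 21.4, 22.4, 24.7 and 21.8 TPM, against 45.4, 47.1, 53.0 and 44.9 TPM with IL-1β (-1.06 ± 0.10, adjusted p = 1.79e-13). At 24 h it gave 22.6, 22.7, 26.1 and 21.9 TPM, against 58.9, 48.1, 63.6 and 61.2 TPM with IL-1β (-1.29 ± 0.10, 7.55e-17). The groups did not overlap at either time. Budesonide alone had 24.5, 22.6, 24.9 and 22.2 TPM at 24 h, against 40.2, 42.6, 46.5 and 39.1 TPM in NS cells (-0.82 ± 0.10, adjusted p = 3.93e-10), and IL-1β stood 0.45 ± 0.10 above NS (0.000244), both short of 2-fold. The change with budesonide alone was -0.92 ± 0.11 at 6 h (5.32e-10) and -0.90 ± 0.10 at 12 h (5.17e-11). For the cotreatment against NS it was -0.67 ± 0.11 at 6 h (1.02e-06) and -0.84 ± 0.10 at 24 h (2.41e-10). These changes were also short of 2-fold. At 1 h the 4 groups overlapped, between 41.2 and 60.6 TPM.

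Of the cytoplasmic ERK phosphatases, DUSP6 was raised by either agent, at different times. At 1 h budesonide alone gave 23.7, 19.3, 23.8 and 17.6 TPM, against 7.77, 8.40, 11.8 and 7.72 TPM in NS cells (1.21 ± 0.21, adjusted p = 9.99e-05). IL-1β alone gave 11.8, 11.9, 14.4 and 13.1 TPM at that time (0.52 ± 0.21, 0.304), and at 6 h 17.8, 17.6, 22.6 and 17.4 TPM, against 6.62, 8.12 and 7.38 TPM in NS cells (1.29 ± 0.23, 2.47e-06). At 24 h budesonide had 6.85, 5.60, 6.77 and 6.83 TPM, all below the NS libraries at 12.1, 10.8, 14.4 and 7.86 TPM (-0.72 ± 0.21, 0.00355, short of 2-fold). The budesonide response of DUSP6 thus turned over the day, by -1.93 ± 0.30 between 1 and 24 h (adjusted p = 2.74e-07), the largest such estimate of the 9 genes.

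With the cotreatment DUSP6 had 28.8, 30.5, 39.7 and 14.2 TPM at 1 h, a change of 1.03 ± 0.21 from IL-1β (adjusted p = 0.00143). The lowest of these, number 4, is 1 of the libraries that stood apart and is the one that reached into the IL-1β range. Without the 5 such libraries the change was 1.32 (adjusted p = 1.40e-08). The change was short of 2-fold without IL-1β number 1 or 2 or cotreatment number 1, 2 or 3 (0.84 without cotreatment number 3, 0.96 to 0.996 without the others), and in a fit of the 1 h libraries alone (adjusted p = 0.0653). At 24 h the cotreatment had 13.8, 13.5, 18.0 and 12.9 TPM, against 29.1, 13.6, 28.3 and 33.4 TPM with IL-1β. Here the low IL-1β library, number 2, also stood apart, and the difference was -0.76 ± 0.21 (0.00291) with it and -1.04 without the 5 libraries (2.23e-07).

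DUSP7, the other cytoplasmic member and the least abundant of those tested in NS cells, was called in no comparison, though several of its changes short of 2-fold passed the adjusted p. At 6 h it had 3.63, 3.65, 3.57 and 3.89 TPM with the cotreatment and 3.55, 3.37, 3.12 and 4.60 TPM with IL-1β, against 1.61, 1.66 and 1.96 TPM in NS cells. Both stood apart from NS without overlap, by 0.90 ± 0.10 with the cotreatment (adjusted p = 2.64e-11) and 0.88 ± 0.10 with IL-1β (3.38e-11). With a pseudocount of 0.1 TPM these changes were 1.04 and 1.02 and were called. The cotreatment and IL-1β overlapped at 6 h (difference 0.02, 95% interval -0.17 to 0.21) and no longer at 24 h, at 1.84, 2.15, 1.85 and 1.68 TPM with the cotreatment, against 3.34, 3.03, 3.35 and 3.56 TPM with IL-1β (-0.69 ± 0.09, 9.74e-09). At 2 h it was the reverse, 2.47, 2.18, 1.90 and 3.01 TPM with the cotreatment, against 1.19, 1.43, 1.21 and 1.79 TPM with IL-1β (0.60 ± 0.09, adjusted p = 1.35e-06). In DUSP7 the excess over NS at 6 h was thus kept under the cotreatment, while that of DUSP5 was not.

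Among the JNK and p38 phosphatases, the group means of DUSP8 and DUSP10 were correlated with those of DUSP5. Pearson r was 0.883 for DUSP8 with DUSP10, 0.870 for DUSP5 with DUSP10 and 0.852 for DUSP5 with DUSP8 (n = 20 groups of the same libraries, a description without a test). With IL-1β their courses differed. At 1, 2 and 6 h the group means were 54.0, 27.9 and 55.0 TPM for DUSP5 and 10.3, 11.2 and 8.77 TPM for DUSP10. Those of DUSP8 were 10.3, 3.76 and 4.42 TPM. DUSP10 had 12.3, 9.47, 11.1 and 8.32 TPM after 1 h of IL-1β, against 2.54, 1.89, 2.74 and 1.78 TPM in NS cells (1.98 ± 0.15, adjusted p = 8.56e-17). It was called up by IL-1β at all 5 times, the only tested phosphatase of which this held, with 7.79, 7.33, 7.98 and 6.19 TPM still at 24 h, against 3.36, 3.37, 3.35 and 2.82 TPM in NS cells (1.07 ± 0.15, 4.37e-08). With a pseudocount of 1 TPM the change at 24 h was 0.98, short of 2-fold. With the cotreatment it had 12.2, 7.57, 10.9 and 7.49 TPM at 1 h, overlapping IL-1β (-0.12, 95% interval -0.43 to 0.18). At 6 h it had 1.99, 2.00, 2.64 and 1.43 TPM with the cotreatment, against 10.4, 8.72, 9.17 and 6.77 TPM with IL-1β (-1.89 ± 0.15, 3.07e-16), and these groups did not overlap. With budesonide alone DUSP10 changed from NS by -0.72 ± 0.17 at 6 h (adjusted p = 0.000778) and -0.77 ± 0.15 at 12 h (5.38e-05), both short of 2-fold.

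DUSP8 had the next largest estimate to DUSP1 for IL-1β at 1 h, with 9.89, 9.76, 10.7 and 11.0 TPM, against 1.69, 1.72, 2.34 and 2.39 TPM in NS cells (2.11 ± 0.24, adjusted p = 1.79e-10). The response was 1.56 ± 0.34 lower at 24 h than at 1 h (0.000273). DUSP8 was also the 1 phosphatase that budesonide lowered past 2-fold. At 2 h budesonide gave 0.717, 0.728, 0.859 and 0.876 TPM, against 1.94, 2.50, 1.92 and 2.30 TPM in NS cells (-1.04 ± 0.24, adjusted p = 0.0024), and at 6 h 0.472, 0.352, 0.435 and 1.38 TPM, against 2.54, 2.24 and 3.49 TPM in NS cells (-1.55 ± 0.26, 2.64e-06). The groups did not overlap at these times, but the pseudocount of 0.5 TPM shrinks changes at such levels. At 2 h the change was short of 2-fold without NS number 2 (-0.98, adjusted p = 0.0152) and with a pseudocount of 1 TPM (-0.82). With the cotreatment DUSP8 was called up at 1 h (1.56 ± 0.24) and down at 6 h (-1.31 ± 0.26) against NS, with 7.98, 6.98, 7.62 and 5.40 TPM at 1 h and 0.885, 0.433, 0.616 and 1.48 TPM at 6 h. DUSP1 and DUSP8 thus differed in direction under budesonide. Whether the cyclic AMP response element in their promoters has a part in any of these responses was not tested.

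DUSP16, a JNK and p38 phosphatase found mainly in the cytoplasm, was raised by IL-1β from 2 h on. At 1 h IL-1β gave 21.8, 14.3, 16.1 and 24.0 TPM, overlapping NS at 14.6, 14.1, 13.2 and 26.6 TPM (0.18 ± 0.38, adjusted p = 0.991). At 6 h it gave 66.6, 70.2, 79.6 and 97.4 TPM, against 18.9, 16.4 and 30.8 TPM in NS cells (1.85 ± 0.41, 0.000169), with no overlap. DUSP16 was then the most abundant phosphatase mRNA of IL-1β-treated cells, with a mean of 78.4 TPM, in the place that DUSP1 held at 1 h. Calls also came at 2 h (1.26 ± 0.38, 0.0138), 12 h (1.72 ± 0.38, 0.000209) and 24 h (1.18 ± 0.38, 0.0116). In fits without a replicate block, the call at 2 h was lost without IL-1β number 4 (adjusted p = 0.0551) or NS number 3 (0.0568), and that at 24 h without IL-1β number 4 (0.88, 0.0856). With the replicate number as a block and all libraries, the adjusted p was 7.25e-05 at 2 h and 8.59e-05 at 24 h. Against NS of the same number, IL-1β had 2.21, 2.25, 3.35 and 2.09 times the level at 2 h. At 24 h it had 2.87, 1.13, 3.00 and 2.84 times the NS level. Without the 5 libraries that stood apart the change at 24 h was 1.61 (1.55e-05).

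The SE of DUSP16 was the largest of the 9 genes, and its spread between libraries followed the replicate number given in the labels. Number 4 was the highest library in 19 of the 20 groups, by a median of 0.78 on the log2 scale over the other libraries of its group, and the exception was the cotreatment at 1 h, where number 4 is a library that stood apart. Number 2 was the lowest in 12 of 20. Other members also followed the replicate number, by smaller medians. Number 3 was the highest for DUSP4 in 16 of 18 groups, and number 4 for DUSP8 in 14 of 20. Number 4 was the lowest for DUSP10 in 15 of 20 groups, and for DUSP14 also in 15 of 20. With the cotreatment at 12 h DUSP16 had 46.7, 11.7 and 59.0 TPM (numbers 1, 2 and 4), against 78.9, 40.7, 80.5 and 103.5 TPM with IL-1β (numbers 1 to 4). This was its 1 call in the cotreatment against IL-1β (-1.16 ± 0.41, adjusted p = 0.0242), and it was lost without cotreatment number 2, which stood apart (-0.45, 0.508), and without IL-1β number 1 (0.0508), 3 (0.0541) or 4 (0.0834). Set against the library of the same number, the cotreatment had 0.591, 0.287 and 0.571 times the IL-1β level of DUSP16 at 12 h, and 0.624, 0.517, 0.524 and 0.592 times at 6 h, lower in 3 of 3 and in 4 of 4 numbers. It was also lower in 4 of 4 numbers at 2 h, but in 3 of 4 at 24 h (1.18 times in number 2) and in 1 of 4 at 1 h (1.02, 1.11 and 1.35 times in numbers 1 to 3).

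**Figure D4:**
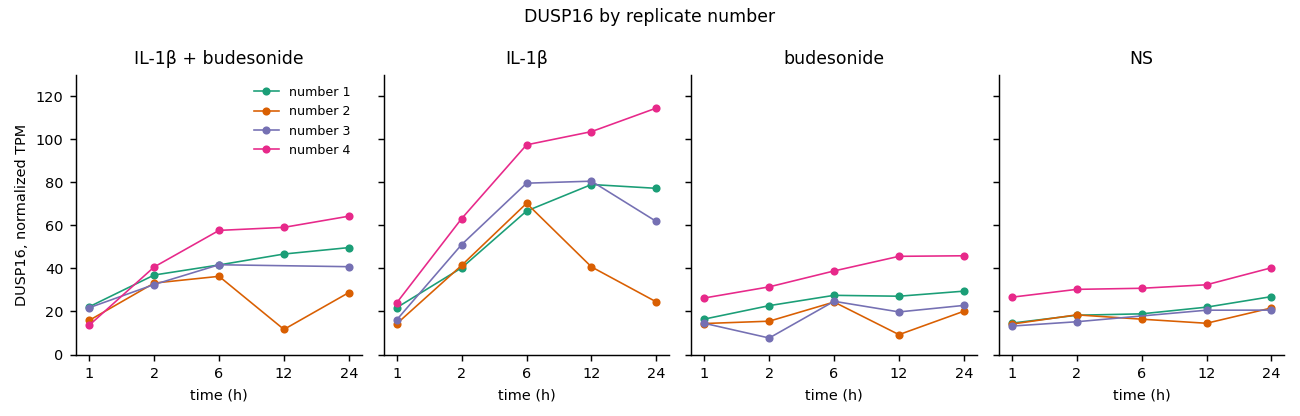
DUSP16 in normalized TPM (vertical axis from 0) over time in the cotreatment, IL-1β, budesonide and NS cells, with each line joining libraries of 1 replicate number. The line of number 4 is the highest in 19 of 20 groups, and number 2 drops to 11.7 TPM in the cotreatment at 12 h and 24.4 TPM with IL-1β at 24 h.

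With the replicate number as a block in the fit, the SE of DUSP16 was smaller and 4 more of its values were called. The cotreatment was 1.08 ± 0.27 above NS at 6 h (adjusted p = 0.00105, against 0.0528 without the block) and 1.04 ± 0.25 above budesonide at 2 h (0.00149, against 0.0700). The interaction was -1.29 ± 0.37 at 6 h (0.00993, against 0.178) and -1.24 ± 0.37 at 12 h (0.0130, against 0.196). No value of DUSP16 in budesonide against NS was called, and without the block its log2 fold changes lay between -0.21 and 0.41. At 12 h that difference was 0.02 (95% interval -0.74 to 0.79), with budesonide number 2, which stood apart, at 9.24 TPM.

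DUSP14 was called in no comparison. Its levels lay between 12.1 and 31.2 TPM in all 78 libraries, and its log2 fold changes between -0.43 and 0.37 with IL-1β, between -0.31 and -0.03 with budesonide and between -0.45 and 0.32 with the cotreatment against NS. Within these bounds it had a course of its own. At 2 h it had 30.0, 30.0, 26.2 and 22.6 TPM with IL-1β, against 21.6, 22.4, 21.2 and 18.3 TPM in NS cells (0.37 ± 0.09, adjusted p = 0.00304). At 12 h it had 15.7, 15.5, 14.2 and 14.6 TPM with IL-1β, against 21.9, 20.1, 20.3 and 18.9 TPM in NS cells (-0.43 ± 0.09, 0.000218), and neither pair of groups overlapped.

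Whether both agents together did more or less than the sum of each was tested as an interaction, the log2 fold change of the cotreatment less those of IL-1β and budesonide added up. It was called in 3 of 45 pairs, all negative (1.19% of all pairs were called negative and 1.12% positive). At an unadjusted limma p of at most 0.05, 17 pairs were negative and 2 positive, and of the positive ones DUSP7 at 2 h (0.69 ± 0.13) also passed the adjusted p, at 0.000440, short of 2-fold. These were DUSP1 at 1 h (-1.40 ± 0.17, adjusted p = 1.76e-07), DUSP5 at 6 h (-1.55 ± 0.22, 2.88e-07) and DUSP10 at 6 h (-1.17 ± 0.23, 0.000136). The call of DUSP10 was short of 2-fold without NS number 4 at 6 h (-0.98, 0.00291). The scale matters for DUSP1. In TPM the cotreatment added 358.1 to the NS mean at 1 h, more than the sum of 306.4 from IL-1β (190.3) and budesonide (116.1), while the log2 interaction was negative. For DUSP5 at 6 h both scales gave the same direction, with 3.95 TPM added by the cotreatment, against a sum of 40.6 TPM. DUSP10 at 6 h lost 0.773 TPM with the cotreatment, against a sum of +4.66 TPM. At the other 4 times DUSP1 added less in TPM with the cotreatment than the sum, 196.0 against 247.1 at 24 h. The differences in TPM were not tested.

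**Figure D5:**
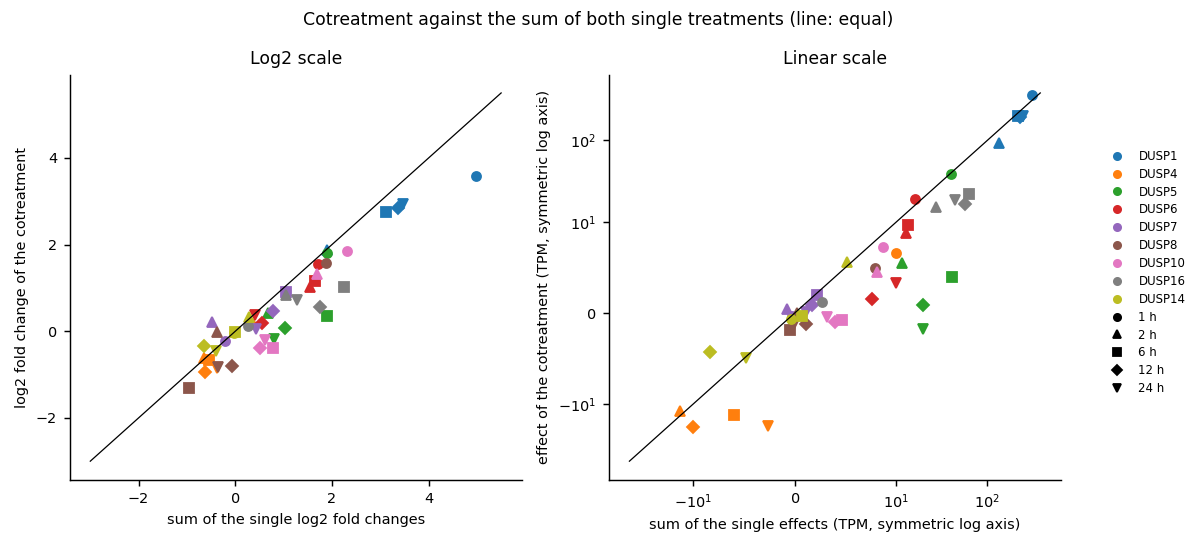
Cotreatment effect against the sum of both single effects for 9 phosphatases at 5 times, as log2 fold changes (left) and as TPM added to the NS mean (right, symmetric log axes), with a line where both are equal. DUSP1 at 1 h lies under the line on the left, by 1.40, and over it on the right, at 358.1 against 306.4 TPM.

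The time course of the cotreatment against IL-1β was tested as the difference between 24 and 1 h. It was called in 5 of the 9 genes, 4 of them negative (DUSP6 -1.79 ± 0.30, DUSP5 -1.59 ± 0.21, DUSP4 -1.34 ± 0.14 and DUSP10 -1.14 ± 0.22) and DUSP1 positive (1.85 ± 0.17). Over all genes 3.24% were called negative and 2.8% positive. DUSP8 had a difference of -0.83 ± 0.34 that did not pass (adjusted p = 0.075). The median over the 9 genes was -0.83, against 0.00 over all genes.

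Other genes of the pathway were read from lists chosen with results of these data known. Of all genes tested, IL-1β raised 7.53% and lowered 8.8% at 1 or more times, budesonide raised 4.87% and lowered 6.36%, and the cotreatment lowered 5.6% against IL-1β. Of 20 other dual-specificity phosphatases 15 were tested and 0 were called in any of the 5 comparisons or the interaction, and likewise 0 of 8 tested other phosphatases of MAPKs and their kinases. In each of these comparisons, 2.57% to 8.8% of all genes were called in a given direction at 1 or more times. The share of all genes called in none of them was not counted, so no difference from all genes is read from these counts. With IL-1β 22 of 75 gene and time pairs of the first list and 16 of 40 of the second had an unadjusted limma p of at most 0.05, against 34.4% of the pairs of all genes. Of 12 MAP kinases 1, MAPK6, was called up with IL-1β, at 6 h (58.1 TPM with IL-1β, against 28.6 TPM in NS cells), a share near that of all genes. Of 25 kinases that activate them, IL-1β raised 4 and lowered 2, among them MAP3K8 (TPL2, which activates the ERK pathway) at 2 h (2.65 ± 0.11) and MAP2K6, an activator of p38, at 6 h (-2.03 ± 0.14), and the share lowered is near that of all genes. Of 11 kinases downstream of the MAPKs, IL-1β raised 1, and budesonide raised 1 and lowered 1, shares near those of all genes. Of 11 other inhibitors of ERK signaling, budesonide raised 2, ERRFI1, an inhibitor of the EGF receptor, at 24 h (2.43 ± 0.12) and the Sprouty gene SPRY1 at 2 h (1.88 ± 0.16), and IL-1β raised 1, SPRY4, at 2 h (2.15 ± 0.17). Of 12 genes that ERK signaling is known to switch on, IL-1β raised 7, with EGR1 at 5.97 ± 0.19 and IER3 at 3.09 ± 0.11 at 1 h. This list shares Sprouty genes, SPRY4 among them, with that of the inhibitors, so the counts of these lists are not separate. Against IL-1β the cotreatment lowered 5 of the 12, with IER3 at -3.06 ± 0.11 at 24 h. It raised 1, FOS, at 6 h (2.96 ± 0.45), against 5.15% of all genes. Budesonide alone also raised 1, FOS, at 6 h (2.94 ± 0.49), and lowered 4, with ETV4 at -2.22 ± 0.20 at 24 h. Against NS the cotreatment raised 7 and lowered 1 (7.64% and 7.92% of all genes).

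The genes most like each phosphatase were listed by Pearson r over the 20 group means, among 5435 genes that spanned at least 1 on the log2 scale. These are descriptions of shared libraries, without a test. DUSP1 was most like ERRFI1 (r = 0.922), the clock gene PER1 (0.915) and ZFAND5 (0.906). DUSP10 was most like CGAS (0.950), PTGS2, the inducible cyclooxygenase (0.946), and IER3 (0.934), and DUSP8 like IER3 (0.938), BHLHE40 (0.933) and DRD1 (0.929). DUSP5 followed YRDC (0.961), CLCF1 (0.946) and IL6 (0.909), and DUSP16 followed NAMPT (0.950), GBP2 (0.938) and MREG (0.938). Among the genes most like DUSP4 were GDF15 (0.944) and SOX4 (0.900). DUSP7 was most like ITGA2 (0.899), STOML1 (0.899) and APOL1 (0.893), and DUSP14 like KREMEN2 (0.882), WNT10B (0.869) and RBM38 (0.864). DUSP6 had no gene above 0.820, its nearest being PMAIP1 (0.820), PRDM1 (0.785) and FOXQ1 (0.757). Between members the lowest r was that of DUSP1 with DUSP4 (-0.480).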

How the data were processed

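The authors prepared stranded poly(A) libraries, quantified transcripts with kallisto and normalized them with sleuth on GRCh38 (hg38), per the labels; versions are not given in the sources used here. The deposited gene table holds TPM rescaled between libraries by the authors, treated here as a normalized signal. Library depths and counting error cannot be read from this table, which holds no counts. Deposited fold changes and q-values of the authors' own comparisons were not used, nor was 1 unlisted library (NS, 6 h, number 3).

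Groups came from the sample titles. Per the labels there were 4 independent experiments (3 at 12 h), not assigned to single libraries. The 12 h groups of 4 libraries may thus hold more libraries than independent experiments, and their p-values may in part measure technical spread. Of 19652 genes, 13327 that reached 1 TPM in 3 or more libraries were tested on log2(TPM + 0.5) in limma 3.58.1 (R 4.3.3), with 1 mean for each of 20 groups, 78 libraries, 58 residual degrees of freedom and a variance trend. Tests were two-sided, with Benjamini-Hochberg adjustment over all 13327 genes. Fold changes of low genes are understated by the pseudocount. On data simulated for IL-1β against NS at 6 h, the calls took in 47 of 50 genes with a true 3-fold change, 50 of 50 with 4-fold, 50 of 50 with 8-fold, 1 of 50 with 1.5-fold and 2 without any. The changed genes were drawn from those above 5 TPM in NS cells, with noise independent between libraries. DUSP7, DUSP8 and DUSP10 lay below that level in NS cells. DUSP16 followed the replicate number, and by smaller medians so did other members such as DUSP4 and DUSP14. These rates thus do not carry over to these genes.

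Same-numbered libraries of 1 time deviated together (median r 0.266 over 114 pairs, over 0.1 in 111, against -0.094 over 342 other pairs). Deviations were taken from the group mean. The other pairs must thus be negative on average where the same-numbered ones are positive, and are no separate reference. In 27 of 30 group pairs every r was over 0.1, the exceptions being the cotreatment with NS at 1 and 6 h and with IL-1β at 1 h. The members, gene lists, motifs and tests were chosen with earlier results of these data known. All 10 phosphatases were named. From other lists at most 2 genes per comparison, those with the largest called changes, could be named, and the 3 most alike genes of each phosphatase, of which 1 is not reported here. Alternatives were other pseudocounts, filters, scalings and fits, the replicate block, and leaving out libraries.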

Additional observations from a re-analysis of the deposited data

Results flagged for a closer look

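In groups of 4 libraries, 19 of 180 had 1 library whose gap to the nearest other, as a share of the group's range, passed Dixon's critical value. For independent, normally distributed values chance alone gives about 1 in 20. The groups here share libraries between genes, and several genes followed the replicate number, so no excess over that rate is read from the count.

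For DUSP6, number 3 was high in the cotreatment at 6 h (20.5 TPM) and 24 h (18.0 TPM), with IL-1β at 6 h (22.6 TPM) and in NS cells at 1 h (11.8 TPM) and 12 h (12.7 TPM), and number 2 was low with budesonide at 24 h (5.60 TPM). DUSP5 was high in cotreatment number 1 at 2 h (30.0 TPM, against 14.9 to 16.3 TPM in the other 3) and low in IL-1β number 4 at 1 h (45.6 TPM) and 12 h (31.6 TPM). DUSP8 was high in number 4 with IL-1β at 2 h (5.02 TPM) and with budesonide at 6 h (1.38 TPM), and low in NS number 3 at 24 h (1.20 TPM). DUSP10 was low in budesonide number 2 at 2 h (1.59 TPM) and in NS number 4 at 24 h (2.82 TPM). DUSP14 was low in budesonide number 4 at 2 h (16.4 TPM), and DUSP16 was high in NS number 4 at 1 h (26.6 TPM). DUSP2, near 0 throughout, had 0.216 TPM in budesonide number 1 at 6 h, 0.0270 TPM in budesonide number 1 at 12 h and 0 TPM in cotreatment number 2 at 24 h.

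The response at 24 h differed from that at 1 h in 15 of 27 tests over 3 comparisons (limma adjusted p of at most 0.05). For IL-1β against NS the difference was -2.51 in DUSP1, -1.56 in DUSP8, -0.91 in DUSP10 and 0.88 in DUSP7. For budesonide against NS it was 0.98 in DUSP1, -1.93 in DUSP6, -0.98 in DUSP4, -0.77 in DUSP10 and -0.70 in DUSP5. For the cotreatment against IL-1β it was 1.85 in DUSP1, -1.79 in DUSP6, -1.59 in DUSP5, -1.34 in DUSP4, -1.14 in DUSP10 and -0.60 in DUSP7.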

How the results depend on the processing

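Counts are of the 45 gene and time pairs. Budesonide against NS gave 4 pairs down, in place of 2, with a pseudocount of 0.1, 1 with a pseudocount of 1 and 0 with a minimum mean of 5 TPM, and the cotreatment against NS 3 and 0 down, in place of 1, with 0.1 and with the 5 TPM minimum. That minimum also gave 7 pairs down, in place of 13, for the cotreatment against IL-1β and 3 up, in place of 7, against budesonide: it removes DUSP7, DUSP8 and DUSP10 by construction. The replicate block gave 5 negative interactions in place of 3, both added ones in DUSP16, and it changed no other call than the 4 of DUSP16 given above. Leaving out 1 replicate number gave 16 to 18 pairs up with IL-1β, 5 to 6 up and 1 to 3 down with budesonide, 11 to 13 up and 1 to 2 down with the cotreatment against NS, 4 to 5 up and 12 to 13 down against IL-1β, 6 to 8 up against budesonide, and 3 to 5 negative interactions. Of the single values with an adjusted p of at most 0.05, 140 in all, none changed direction under any alternative. Across alternatives and left-out libraries 57 of their values, in 13 of the 140, lost a call, and 55, in 15, gained one. Beside the libraries named above, DUSP6 was short of 2-fold with IL-1β at 12 h without NS number 1, 2 or 4 or IL-1β number 3 or 4 (0.97 to 0.996) and at 24 h without number 4 of either (0.98 and 0.99), with the cotreatment against NS at 2 h without NS number 1, 2 or 4 or cotreatment number 1 (0.93 to 0.998), and against budesonide at 24 h without cotreatment number 3 (0.99). DUSP8 at 2 h was short of it with the cotreatment against budesonide without budesonide number 1 or 2 or cotreatment number 1 or 4 (0.90 to 0.9998). Without the 5 libraries that stood apart, an alternative chosen after seeing the data, the cotreatment against NS gave 14 pairs up, and DUSP16 at 12 h was no longer called against IL-1β. No scaling moved the median of all genes by over 0.1 on the log2 scale. The cause of these changes was not tested. The table holds no read counts, so DUSP2 was not detectable above the filter rather than shown to be absent.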
